A study of Mus musculus with 7 samples.

Results

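Heat shock genes encode molecular chaperones, and 8 of them were followed here through cardiac and blood leukocytes of mice with and without myocardial infarction: Hspa1a, Hspa1b, Dnajb1, Hsph1, Hsp90aa1, Hspa8, Hspe1 and Hspd1. The genes were given as a list of names, with no threshold on their values. All 8 were rows of each of the 7 single-cell matrices, among 27514 genes shared by the matrices' annotations.

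Chaperones hold unfolded proteins and help them reach or regain their shape. Heat, oxidants, ischemia and other insults to protein folding release the transcription factor HSF1, which binds repeated GAA and TTC units in the promoters of Hspa1a, Hspa1b, Dnajb1, Hsph1 and other stress-induced genes, whereas Hspa8 is the member of the HSP70 family made in cells at rest. Warm enzymatic digestion of solid tissue is known to raise heat shock and immediate early transcripts in the cells that are released.

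The cells came from C57BL6/J mice, and infarction was made by permanent coronary ligation. In 5 libraries, CD45+ leukocytes were sorted from hearts of male mice at steady state (5 mice pooled), day 1 (5), day 3 (5), day 5 (5) and day 7 (3) after infarction, after a step that reduced neutrophils. A second preparation, here the CD11b+ heart pool, held CD11b+ myeloid cells of male hearts of day 1 (5 mice), day 3 (5) and day 5 (3), each day marked by an antibody hashtag, in 1 library. In both preparations hearts were minced and digested with collagenases and hyaluronidase at 37 °C with shaking, and cells labelled from the blood stream by an injected CD45.2 antibody were left out. The last library mixed viable CD11b+ cells (Ter119-, B220-, NK1.1-) of blood and ischemic heart of C57BL6/J mice aged 8 to 10 weeks, which had no surgery (3 mice), sham surgery 1 or 3 days before (3 each) or infarction 1 or 3 days before (5 each). Its blood was kept on ice, and for its heart tissue mechanical dissociation is described and no enzyme. Its 7 hashtags could not be tied to conditions, so each is reported by number, without comparison between groups. The steady-state library carries the condition label of infarction although its time point reads steady state and the protocol calls these hearts not infarcted. Each library or hashtag pooled its mice, so the samples carry no spread between animals.

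Cells were grouped into classes by clustering without the chaperone and immediate early genes, and classes were named from marker genes: monocyte/macrophage-like, neutrophil-like, B cell-like, and a T cell-like cluster of 216 cells that held 142 cells with a Cd3 transcript and 69 with an NK receptor transcript and no Cd3, called the T/NK cluster below. The other classes are written below without the ending. UMIs, the counted transcript molecules, were summed over at least 30 cells of a class in a library or hashtag. The 5 CD45+ libraries gave 522 to 1793 cells, the 3 days of the heart pool 495 to 2159 and the blood and heart pool 718 to 1848 in each of 7 hashtags. Median depth was 7259 to 10755.5 UMIs per monocyte/macrophage in the CD45+ libraries and 22879 to 29588.5 in the heart pool. Levels are UMIs per 1000000 UMIs of a sum (CPM), with exact 95% Poisson intervals that cover counting error only.

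The 8 genes lie on 6 chromosomes of the mouse genome (GRCm38, GENCODE annotation), and all are protein-coding. Hspa1a (chr17:34969190-34972156, minus strand) and Hspa1b (chr17:34956436-34959238, minus strand) are neighbours that encode nearly the same inducible HSP70. Dnajb1 (chr8:83608193-83612653, plus strand) encodes the HSP40 co-chaperone that delivers clients to HSP70, and Hsph1 (chr5:149614287-149636376, minus strand) an HSP110 that exchanges its nucleotide. Hsp90aa1 (chr12:110690605-110702728, minus strand) encodes the inducible HSP90, and Hspa8 (chr9:40800984-40810087, plus strand) the constitutive HSC70. Hspd1 (chr1:55077835-55088243, minus strand) and Hspe1 (chr1:55088132-55091307, plus strand) encode the mitochondrial chaperonin HSP60 and its lid HSP10. Their gene models point away from each other and share 112 bases at their 5′ ends.

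Promoter sequences from RefSeq (GRCm38.p6) were matched for 6 of the 8 genes. The stretches shown run from position -150 to -1 before the start, 5′ to 3′ on the gene's strand, and are those of the duplicated pair and of the head-to-head pair, so that each pair can be set side by side. Capitals mark the longest run of alternating GAA and TTC units.
Hspa1a (chr17:34972157-34972306, minus strand): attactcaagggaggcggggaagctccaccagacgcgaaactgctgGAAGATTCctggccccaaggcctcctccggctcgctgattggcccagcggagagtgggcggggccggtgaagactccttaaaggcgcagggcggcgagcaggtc
Hspa1b (chr17:34959239-34959388, minus strand): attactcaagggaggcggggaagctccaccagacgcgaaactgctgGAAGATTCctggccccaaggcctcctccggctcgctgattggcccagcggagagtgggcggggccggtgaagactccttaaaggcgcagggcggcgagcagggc
Hspe1 (chr1:55087998-55088147, plus strand): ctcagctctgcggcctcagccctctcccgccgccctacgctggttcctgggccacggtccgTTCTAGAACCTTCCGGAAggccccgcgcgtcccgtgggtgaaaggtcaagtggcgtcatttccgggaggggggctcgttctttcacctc
Hspd1, RefSeq start further downstream (chr1:55087933-55088082, minus strand): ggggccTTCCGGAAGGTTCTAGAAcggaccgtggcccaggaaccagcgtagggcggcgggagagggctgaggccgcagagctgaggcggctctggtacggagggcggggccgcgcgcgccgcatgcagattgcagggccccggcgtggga
The Hspa1a and Hspa1b stretches differed at 1 of 150 positions, and their whole 300-base promoters (250 bases before to 50 after the start) had the same base at 296 of 300. Both hold GAAGATTC from position -104. The Hspe1 and Hspd1 capitals are the same 18 bases of chromosome 1 (55088059 to 55088076) read on opposite strands. The other RefSeq promoter of Hspd1 (chr1:55088194-55088493, minus strand), at the start where 2 annotated transcripts begin, held neither motif. No annotated transcript begins at the Hspd1 or Hspe1 start shown, nor at the RefSeq starts of Hsph1 and Dnajb1. Hsph1 holds the 13 bases TTCTGGAAAGTTC at position 36 after its start, and no match of either motif was found in the Dnajb1 windows. Over 32851 promoters of the same length, 15.06% held 2 adjoining units (GAANNTTC or TTCNNGAA, searched on both strands) and 0.6027% held 3 (GAANNTTCNNGAA or TTCNNGAANNTTC); a match to 3 units contains a match to 2.

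In the CD45+ libraries, the steady-state heart had the highest level of every one of the 8 genes in monocytes/macrophages. Hspa1a stood at 3340 CPM (95% interval 3284 to 3398) at steady state, and at 436, 159, 183 and 109 CPM on days 1, 3, 5 and 7. The steady-state level was 7.66 times that of day 1 (counting interval 7.21 to 8.14) and 30.6 times that of day 7 (28.4 to 33.0). Hspa1b, its duplicate, had the same order of libraries, with 510 CPM at steady state and 55.7, 19.2, 24.6 and 14.4 CPM on days 1, 3, 5 and 7. Each condition is 1 library, so no test between conditions was possible for steady state or day 7, and condition and library cannot be told apart.

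The co-chaperones were high in the same library. Dnajb1 was at 469 CPM at steady state against 83.2, 55.7, 59.8 and 44.8 on days 1, 3, 5 and 7, a ratio of 10.5 over day 7 (9.27 to 11.9). Hsph1 was at 174.5 CPM against 16.8, 40.1, 27.5 and 19.9, with its lowest level on day 1. Hsp90aa1 was at 1808 CPM against 460, 516, 339 and 365, a ratio of 4.96 over day 7 (4.73 to 5.19).

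The constitutive and mitochondrial genes differed least between these libraries. Hspa8 was at 5350 CPM at steady state and 2678, 3576, 2570 and 2292 on days 1, 3, 5 and 7. Its highest level was 2.33 times its lowest, against 30.6 times for Hspa1a and 35.5 times for Hspa1b. Hspe1 was at 472 CPM at steady state and 131, 285, 252 and 280 on the later days, and Hspd1 at 219.5, 116, 139, 99.6 and 83.1. These values are compared within a gene only.

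**Figure D1:**
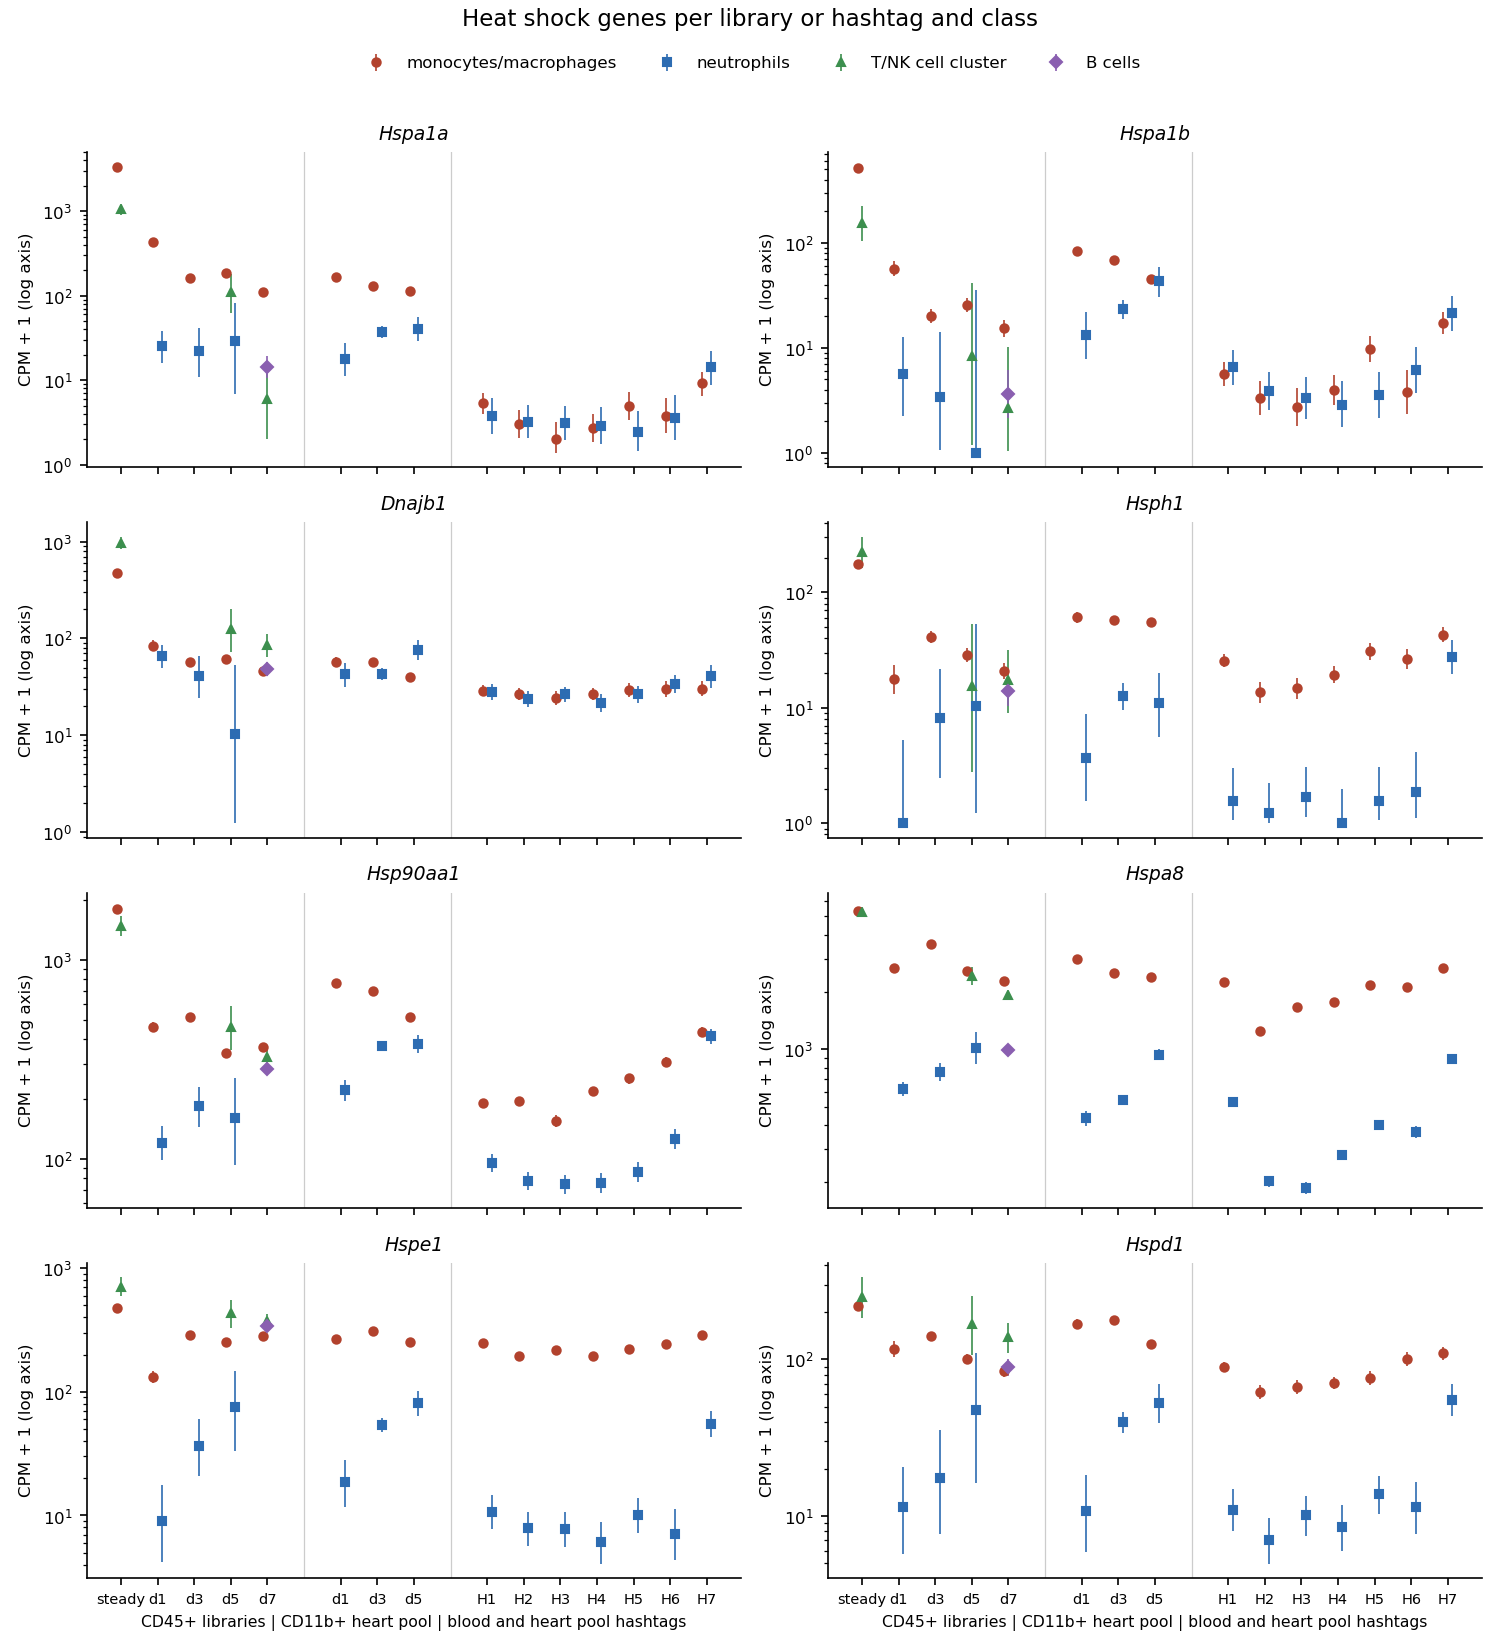
Level of each of the 8 heat shock genes (CPM + 1, log axis) by library or hashtag, with points coloured by cell class and bars for the exact 95% counting interval. In the CD45+ libraries the steady-state points are the highest of monocytes/macrophages in all 8 panels, and in the blood and heart pool Hspa1a lies between 1.03 and 13.4 CPM.

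The T/NK cluster of the same steady-state library had the same inducible genes high. Hspa1a was at 1049, 109 and 4.97 CPM at steady state and on days 5 and 7, where the last value rested on 3 UMIs; the ratio of steady state to day 5 was 9.60 (5.68 to 17.5). Dnajb1 was at 969.5 CPM at steady state, 124 on day 5 and 84.5 on day 7, and Hsp90aa1 at 1486, 459 and 325. The steady-state ratio over day 7 was 11.5 for Dnajb1 (8.37 to 15.97) and 4.57 for Hsp90aa1 (3.80 to 5.52), beside 10.5 and 4.96 in monocytes/macrophages. Summed over the 8 genes, the T/NK cluster held 10100 CPM at steady state against 3738 and 2869 on days 5 and 7, and monocytes/macrophages 12343 CPM against 3208 to 4790. Over the 3 sums of the T/NK cluster, NK cell markers summed to 4194 to 12323 CPM and T cell markers to 2648 to 3112 CPM. Its mix of T and NK cells may thus differ between libraries, and the part of this in the ratios was not tested.

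Transcripts of macrophages that float free in a droplet can enter other cells, so macrophage markers were taken as a rough gauge of their level. The markers do not tell free RNA from a cell's own transcripts. In the T/NK cluster these markers stood at 16.1% of their monocyte/macrophage level at steady state, 8.01% on day 5 and 11.3% on day 7. Hspa1a in that cluster was at 31.4% (27.2 to 36.2) of its monocyte/macrophage level at steady state, 59.9% (33.4 to 99.1) on day 5 and 4.55% (0.937 to 13.4) on day 7. The day 7 value is at or below the gauge and cannot be told from background by it. The same holds for B cells on day 7, where Hspa1a was at 13.4 CPM, 12.3% of the monocyte/macrophage level, with markers at 12.4%. Hspa1a over Dnajb1 was 7.12 in steady-state monocytes/macrophages and 1.08 in the steady-state T/NK cluster, and the part of free RNA in these values was not tested.

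Smaller groups of the steady-state library, each under 30 cells, also carried Hspa1a: 10 B cells at 274 CPM (125 to 520), 7 neutrophils at 403 (148 to 876) and 13 unnamed cells led by Cd209a and MHC class II genes at 642 (534 to 766). A mixed cluster of 25 cells with fibroblast markers was at 2862 CPM (2624 to 3117). The levels in these groups rest on 6 to 529 Hspa1a UMIs, and B cells and neutrophils had no second CD45+ library at steady state to set beside them.

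The makeup of the monocytes/macrophages differed between the libraries. At steady state 95.9% lay in a cluster led by Hspa1a, Mgl2, Cbr2, Cd81 and Folr2, the folate receptor of resident macrophages, although Hspa1a had no part in the clustering. On day 1, 98.9% lay in a cluster led by Saa3, Cxcl3 and Arg1. On day 3, 59.0% lay in a cluster with Plac8, Chil3 and Ly6c2, and on days 5 and 7, 73.1% and 78.5% lay in one with Ms4a7, Gpnmb, Spp1 and Trem2. Within the Folr2-led cluster alone, Hspa1a was at 3458 CPM in 515 steady-state cells and 450 CPM in 69 day 7 cells, a ratio of 7.69 (6.79 to 8.74). The ratio was 4.37 for Dnajb1 (3.40 to 5.71) and 4.26 for Hsp90aa1 (3.75 to 4.86). On day 7 the same gene was at 83.4 CPM in the Trem2 cluster and 25.0 CPM in the Ly6c2 cluster. So within 1 library, Hspa1a differed between macrophage clusters, and within 1 cluster it differed between libraries, beyond counting error in both cases. This comparison of the cluster alone was chosen after seeing the data.

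**Figure D2:**
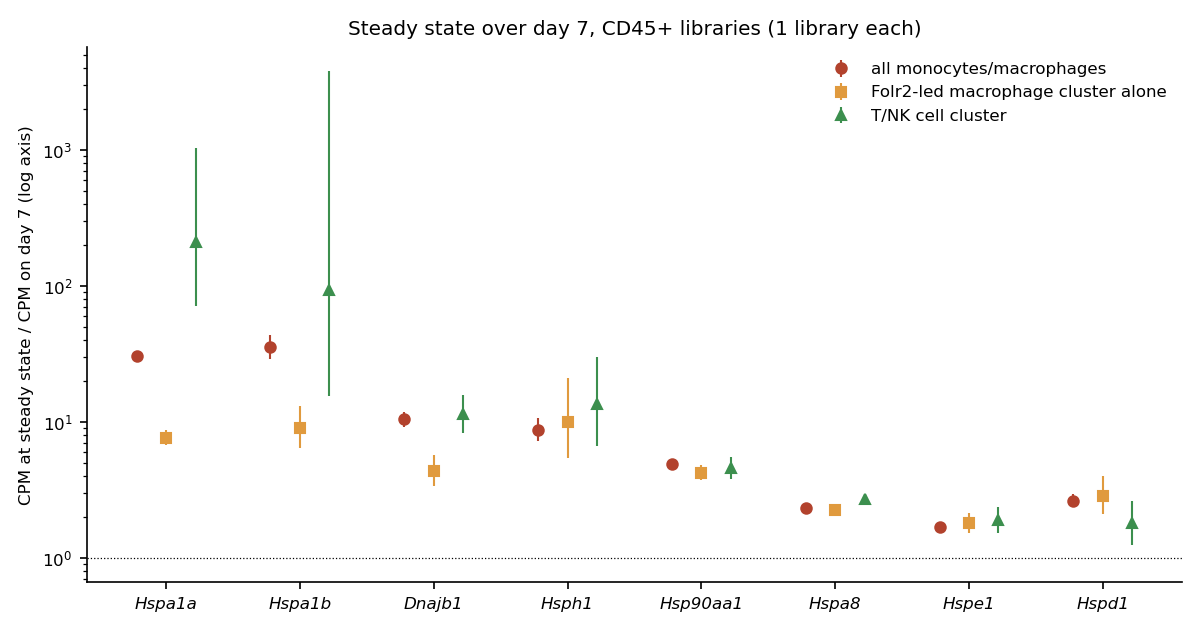
Ratio of the steady-state level to the day 7 level for each gene (log axis) in all monocytes/macrophages, in their Folr2-led cluster alone and in the T/NK cluster, with 95% counting intervals. For Hspa1a the ratio is 30.6 in all monocytes/macrophages and 7.69 in the cluster alone, while for Hspa8 it is 2.33 and 2.26.

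Other chaperones and immediate early genes, which are switched on within minutes of a stimulus, were set beside the 8 genes. The 18 immediate early genes summed to 25419 CPM in steady-state monocytes/macrophages against 6936 to 9914 CPM in the other CD45+ libraries, and to 12247 CPM in the steady-state T/NK cluster against 5721 and 4888 CPM. The list of 30 further cytosolic chaperones and co-chaperones, among them Hsp90ab1 and Dnaja1, summed to 5905 CPM against 2325 to 3186 in monocytes/macrophages, and to 7197 CPM against 3219 and 3972 in the T/NK cluster. The cytosolic chaperonin CCT, measured by 7 of its 8 subunit genes, stood at 938 CPM at steady state against 886 to 1285, and 16 endoplasmic reticulum chaperones at 4986 CPM against 3501 to 6514. In monocytes/macrophages, steady-state sums were thus outside the range of the other libraries for the cytosolic and early genes. They were inside it for CCT and the endoplasmic reticulum, which are not given for the T/NK cluster. The list of mitochondrial chaperones and proteases was not set beside these.

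Further values moved with the steady-state library. The median mitochondrial share was 2.75% in its monocytes/macrophages against 1.62% to 2.04% in the other CD45+ libraries, and 5.12% of its barcodes exceeded the limit of 10% against 0.443% to 1.81%. Cardiomyocyte markers, all 9 of which were detected, summed to 354 CPM in its monocytes/macrophages against 11.02 to 24.6, endothelial markers to 211 against 48.1 to 108, and fibroblast markers to 79.2 against 5.73 to 24.5 (8 genes each, of which 8 and 7 were detected). Bulk sums cannot tell fewer cells of a kind from less RNA of that kind per cell. The part of these values in the levels of the heat shock genes was not tested.

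**Figure D3:**
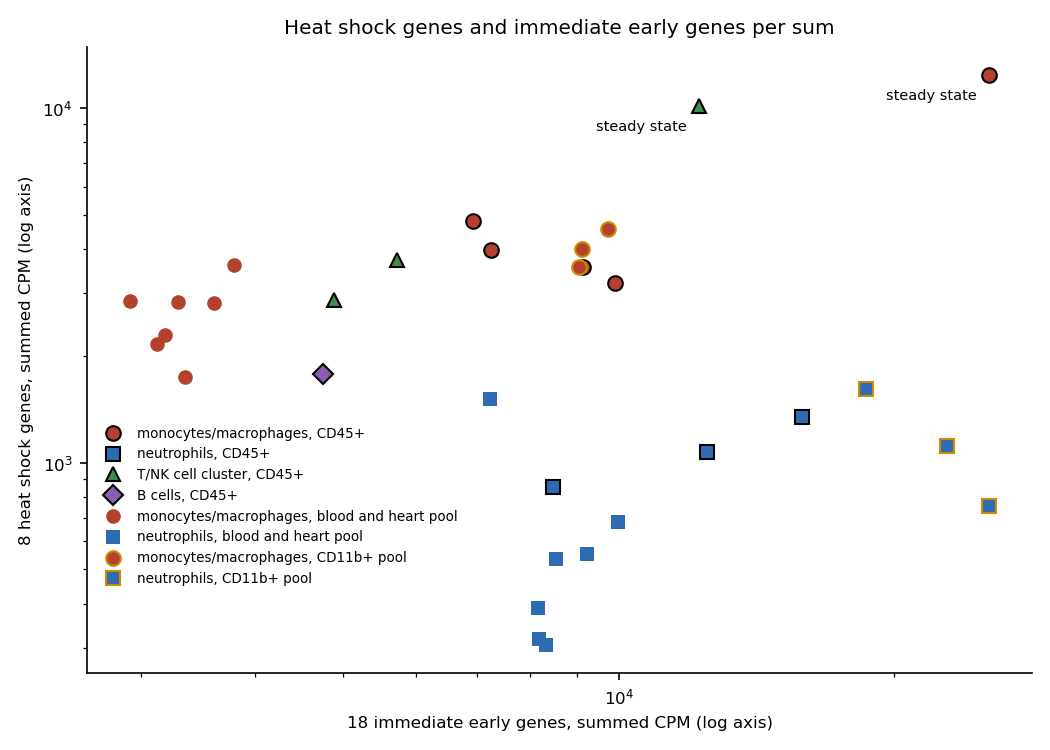
Summed CPM of the 8 heat shock genes against the summed CPM of 18 immediate early genes, both on log axes, 1 point per class and library or hashtag. Both steady-state points lie above all others on the vertical axis, at 10100 and 12343 CPM, and neutrophils of the heart pool reach similar sums of early genes with 754 to 1613 CPM of heat shock genes.

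Single cells were compared after thinning each to 1500 UMIs. At steady state 74.0% of 534 monocytes/macrophages had at least 1 Hspa1a UMI (exact binomial 95% interval 70.0 to 77.6), against 24.0%, 12.0%, 13.04% and 8.53% (6.40 to 11.1) on days 1, 3, 5 and 7. Before thinning, 94.8% of the steady-state cells and 30.5% of the day 7 cells had one. At steady state 45.9% of thinned cells had 3 or more. In the T/NK cluster 58.5% of 41 steady-state cells (42.1 to 73.7) and 6.45% of 31 day 5 cells (0.791 to 21.4) had a UMI. None of the thinned 135 day 7 cells had one, beside 2.22% before thinning, so no order is read from that value. B cells of day 7, with 2.29% of 962 cells, give the share in a class at the level of the macrophage marker gauge.

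In a separate draw of the same thinning, the inducible genes were found together in steady-state monocytes/macrophages. Of the 253 cells with more than the median of 2 Hspa1a UMIs, 56.1% had an Hspa1b UMI, against 11.4% of the other 281. The shares were 47.4% and 18.1% for Dnajb1, 29.2% and 11.7% for Hsph1, and 83.0% and 59.1% for Hsp90aa1. For the mitochondrial pair they lay closer, with 48.2% and 37.0% for Hspe1 and 27.7% and 19.9% for Hspd1. Hspa8 was found in 100% and 99.3%. For Hspa1b the same direction was seen on day 7, where 12.9% of the 62 cells with an Hspa1a UMI and 0.763% of the other 524 had one of Hspa1b. It was also seen in heart pool day 3, with 31.6% of 114 and 3.07% of 879, and on days 1 (20.3% and 3.38%) and 5 (8.25% and 1.34%). Dnajb1 had that direction too, with 16.1% and 5.92% on day 7. So did Hsp90aa1, with 54.8% and 37.2% on day 7, 48.5% and 33.7% on day 5, and 74.6% and 55.2% in heart pool day 3. Its shares lay closer on day 1, at 48.4% and 44.9%. Hsph1 was at 7.81% and 4.35% on day 1 and at 10.5% and 5.23% in heart pool day 3. Its shares lay closer on day 5, at 5.15% and 4.18%, and on day 7, at 3.23% and 2.29%. Only Hspd1 on day 1 went the other way, at 10.9% and 16.4%. Cells of a library are not replicates, so these shares describe the libraries.

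The design allowed a test of the cell class, because neutrophils and monocytes/macrophages of days 1, 3 and 5 went through the same digestion and droplet run in each of 6 libraries or hashtags. Neutrophils had less of 7 of the 8 genes, namely all but Dnajb1, in edgeR's quasi-likelihood test with the library or hashtag as a block; 33.3% of all 8622 genes tested were called lower and 56.3% in either direction. The median log2 difference was -1.93 over the 8 genes and -0.21 over all genes. The same 7 genes were called under all 12 alternatives. Total-count scaling in place of TMM shifted the median gene by -0.36 and the share of higher calls from 40.8% to 26.0%.

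For Hspa1a, monocytes/macrophages had 436, 159 and 183 CPM on days 1, 3 and 5 in the CD45+ libraries and 164.5, 130.5 and 111.5 CPM in the heart pool. Neutrophils had 24.2, 21.4 and 28.0 CPM, and 16.8, 36.4 and 39.7 CPM. The 2 classes did not overlap, and the log2 difference was -2.30 (SE 0.26, edgeR adjusted p = 3.4e-06). Hspa1b had a log2 difference of -1.48 (SE 0.34, edgeR adjusted p = 0.0018), and its ranges overlapped, since heart pool neutrophils of day 5 reached 41.95 CPM beside 44.4 CPM in monocytes/macrophages.

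Hspa8 lay between 2414 and 3576 CPM in monocytes/macrophages and between 433 and 1017 CPM in neutrophils, a log2 difference of -1.68 (SE 0.20, edgeR adjusted p = 4.2e-06). The mitochondrial pair was lower in neutrophils by similar amounts: -2.44 on the log2 scale for Hspe1 (SE 0.24) and -2.18 for Hspd1 (SE 0.28). Hspe1 spanned 131 to 309 CPM in monocytes/macrophages and 8.06 to 80.6 CPM in neutrophils, and Hspd1 spanned 99.6 to 177 and 9.74 to 51.9 CPM. Hsph1, at 16.8 to 60.1 CPM against 0 to 11.7 CPM, had a log2 difference of -2.53 (SE 0.33). Hspa1a, Hsph1, Hspa8, Hspe1 and Hspd1 were thus without overlap between the classes. The share of all genes without overlap was not counted, so this is a description of the values only. An unnamed cluster of the heart pool led by MHC class II genes, in no comparison here, had 114 CPM of Hspa1a in 152 cells of day 3 and 255 CPM in 235 cells of day 5.

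The smallest of the called differences was that of Hsp90aa1. It was at 460, 516 and 339 CPM in CD45+ monocytes/macrophages of days 1, 3 and 5 and at 767.5, 696 and 517 CPM in the heart pool, and in neutrophils at 120, 183 and 159 CPM and at 220, 370 and 378 CPM. Neutrophils were lower in 6 of 6 libraries or hashtags, the ranges overlapped, and the log2 difference was -0.94 (SE 0.19, edgeR adjusted p = 5.3e-04).

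Dnajb1 was the exception. It was at 83.2, 55.7 and 59.8 CPM and 56.1, 56.1 and 38.5 CPM in monocytes/macrophages, and at 64.5, 40.4 and 9.33 CPM and 41.6, 42.0 and 75.1 CPM in neutrophils. The log2 difference of 0.12 (SE 0.27, edgeR adjusted p = 0.74) did not pass the test. It had the opposite sign with total-count scaling (-0.29) and without the heart pool's day 5 (-0.083). The CD45+ day 5 value of neutrophils rests on 1 UMI in 41 cells.

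**Figure D4:**
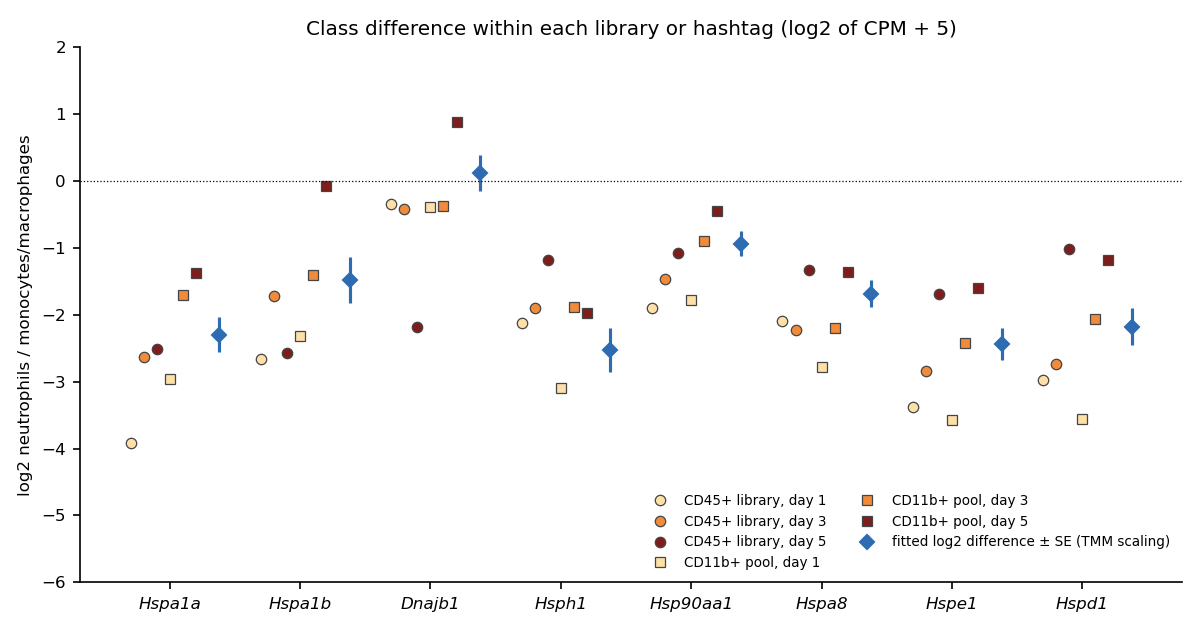
Difference between neutrophils and monocytes/macrophages for each gene, as log2 of CPM + 5, within each of 3 CD45+ libraries (circles) and 3 heart pool hashtags (squares), coloured by day, with the fitted log2 difference and its SE (diamonds). All 6 points lie below 0 for each gene except Dnajb1, for which the heart pool's day 5 lies above.

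Free RNA may limit how far the neutrophil values themselves reflect neutrophils. Macrophage markers in neutrophils stood at 56.1%, 21.8% and 15.8% of their monocyte/macrophage level on days 1, 3 and 5 of the CD45+ libraries and at 29.1%, 11.5% and 8.72% in the heart pool, while Hspa1a stood at 5.54%, 13.4%, 15.3%, 10.2%, 27.9% and 35.7%. The gene was above the gauge on heart pool days 3 and 5, and at or below it on heart pool day 1 and in the CD45+ libraries. Values at or below the gauge cannot be told from background by it. On CD45+ day 1 the markers stood at 56.1% and Hspa1a at 5.54%, so the markers do not give the free-RNA share of this gene. The part of free RNA in the neutrophil values was not tested. In the other direction, neutrophil markers in CD45+ day 1 monocytes/macrophages summed to 17547 CPM against 156 to 1867 CPM in the other CD45+ libraries. Their part in the class difference was not tested.

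In each of 4 other chaperone lists more genes were called lower than higher in neutrophils, beside 33.3% of all genes called lower and 56.3% in either direction. All 7 tested CCT genes were called lower, led by Cct3 (log2 -2.04). Of 16 endoplasmic reticulum chaperones 14 were lower and 2 higher, with Sdf2l1 at -3.07, Pdia4 at -3.02 and Hsp90b1, the HSP90 of that compartment, at -2.11. Of 8 mitochondrial chaperones and proteases 6 were lower, among them Hspa9, the mitochondrial HSP70, at -0.93, and 2 were not called. Of 26 tested cytosolic chaperones 14 were lower, 4 higher and 8 not called: Hsp90ab1, the constitutive HSP90, was at -2.17 and Hspa4l, an HSP110 relative, at 2.05. Immediate early genes went the other way, with 12 of 18 called higher and 1 lower: Btg2 was at 3.06, Egr1 at 3.04 and Klf4 at -3.45.

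The T/NK cluster was compared with monocytes/macrophages in the CD45+ libraries, where both had at least 30 cells at steady state, day 5 and day 7. The fit took all 12 CD45+ sums of named classes, among them neutrophils, B cells and the libraries of days 1 and 3. Its spread was thus estimated over these sums too, while the comparison itself rests on 3 libraries. By edgeR's test 3 of 8 genes passed, 1 higher and 2 lower, while 24.6% of 10628 genes were called, 10.5% higher and 14.1% lower. Hspa1a was lower by a log2 of -2.21 (SE 0.33, edgeR adjusted p = 3.6e-10), with 1049, 109 and 4.97 CPM against 3340, 183 and 109 CPM. The gap was uneven over these libraries, and the day 7 value rests on 3 UMIs. The p-value draws on a spread estimated across genes and sums, not on the spread of this gene over the 3 libraries alone. Leaving out 1 library gave log2 differences between -2.74 and -1.60. Hspa1b was lower by -2.20 (SE 0.45), resting on 1 UMI each on days 5 and 7 in the T/NK cluster. Dnajb1 was higher by 0.82 (SE 0.30, edgeR adjusted p = 0.029), with 969.5, 124 and 84.5 CPM against 469, 59.8 and 44.8 CPM.

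The Dnajb1 call is the weaker of these. Its ratio of T/NK cluster to monocytes/macrophages was 2.07 (1.77 to 2.41) at steady state, 2.07 (1.20 to 3.36) on day 5 and 1.89 (1.38 to 2.55) on day 7, above 1 in 3 of 3 libraries. It did not pass the threshold without day 3 (adjusted p = 0.089), day 5 (0.13), day 7 (0.20) or steady state (0.20), nor by DESeq2 (0.13), all from the fits across genes. For the other 5 genes the log2 differences lay between -0.40 for Hspa8 and 0.26 for Hspe1, and none passed. Of 16 endoplasmic reticulum chaperones 8 were lower in the T/NK cluster, such as Sdf2l1 (-1.65), and of 18 immediate early genes 11 were lower, such as Egr1 (-3.19) and Zfp36 (-3.07), and 1 was higher. Without the library as a block none of the 8 heat shock genes passed. Total counts shifted the median gene by 0.20 and the share of higher calls from 42.7% to 53.0%, and the same 3 genes were called.

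Across the days of infarction, monocytes/macrophages had 1 of 8 genes called lower on day 5 against day 1 by edgeR's test on 2 samples a day, where 11.9% of 10675 genes were called and 6.73% called lower. The gene was Hsp90aa1, with 460 and 339 CPM on days 1 and 5 in the CD45+ libraries and 767.5 and 517 CPM in the heart pool, a log2 difference of -0.75 (SE 0.16, edgeR adjusted p = 0.038). Hspa1a, at -1.18 (SE 0.28, edgeR adjusted p = 0.050), and Hspa1b, at -1.28 (SE 0.31, edgeR adjusted p = 0.052), missed the threshold. DESeq2 called 5 of the 8, adding Hspa1a, Hspa1b, Dnajb1 and Hspd1.

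These day differences depended on single samples. None of the 8 genes was called when either day 5 sample was left out, 4 were called lower without CD45+ day 1, and without heart pool day 1 there were 5 lower and 1 higher, Hspe1 (0.66). Without either day 3 sample 2 were called, Hspa1a and Hspa1b, and Hsp90aa1 was not. The size for Hspa1a was -0.59 without the CD45+ day 1 library, whose 436 CPM stood above the 164.5 CPM of the heart pool's day 1. With total-count scaling the median gene shifted by 0.23, none of the 8 genes was called, the sign of Hsph1 turned from -0.064 to 0.17, and the share of higher calls went from 43.6% to 65.9%. Endoplasmic reticulum chaperones gave 5 lower calls of 16, such as Dnajb9 (-1.56) and Herpud1 (-1.54), and the cytosolic list 3 of 28, Hspa4l, Ptges3 and Dnaja1 (-0.73).

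On day 3 against day 1, edgeR called none of the 8 genes in monocytes/macrophages beside 0.365% of all genes. Hspa1a and Hspa1b had unadjusted p-values under 0.05, and DESeq2 called Hspa1a. The values were -1.12 for Hspa1a (SE 0.29) and 0.43 for Hspe1 (SE 0.26) at the ends. Without heart pool day 1, 3 were called: Hspa1a (-1.56), Hspa1b (-1.44) and Hspe1 (0.93). Total counts shifted the median gene by 0.21 and the share of higher calls among all genes from 12.8% to 0% (of 5 calls), and turned the sign of Hspd1, Hspa8 and Hsp90aa1, which stayed uncalled.

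In neutrophils 7 of the 8 genes could be tested, Hsph1 being too low. None was called on day 3 (1 with an unadjusted p under 0.05, 0 by DESeq2; 1.62% of 6177 genes called) or day 5 (2 with an unadjusted p under 0.05, 0 by DESeq2; 5.46% called). The mitochondrial pair had the highest values: Hspe1 was at 8.06, 35.6 and 74.7 CPM on days 1, 3 and 5 in the CD45+ libraries and at 17.7, 53.3 and 80.6 CPM in the heart pool, a log2 difference of 1.62 on day 5 (SE 0.50, edgeR adjusted p = 0.066). Hspd1 was at 10.4, 16.6 and 46.7 CPM and at 9.74, 38.6 and 51.9 CPM, a log2 difference of 1.31 (SE 0.58, edgeR adjusted p = 0.19) that was 0.57 without heart pool day 1. Both were in the same order of days in both preparations.

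Scaling weighed on the neutrophil values. Total counts in place of TMM shifted the median gene by 0.67 on day 3 and 0.91 on day 5, moved the share of higher calls from 13% to 87.5% and from 24.3% to 92.6%, and called Hspe1 on day 3 and both genes of the pair on day 5. It turned the sign of Hspa1a, Hspa1b and Hspa8 on day 3 and of Hspa1a, Hsp90aa1, Hspa8 and Dnajb1 on day 5. Hspe1 and Hspd1 were also called on day 5 without CD45+ day 1. Without heart pool day 1, Dnajb1 was called lower on day 3 (-1.89) and on day 5 (-1.65). Among the other lists, P4hb and Manf of the endoplasmic reticulum were lower (both -2.45 on day 5) and Cct5 higher (1.75).

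Whether a class changed more than the other between days was tested as the difference itself. The fit, also used for the preparation effect below, held 12 sums and no block for the library or hashtag. It did not use the pairing of the classes within a library or hashtag. None of the 8 genes passed for day 3 (0 with an unadjusted p under 0.05, 0 by DESeq2; 0.0232% of genes called) or for day 5 (3 with an unadjusted p under 0.05, 1 by DESeq2; 1.44% called). The day 5 values were 1.76 for Hspd1 (SE 0.49, edgeR adjusted p = 0.096) and 1.31 for Hspe1 (SE 0.46, edgeR adjusted p = 0.17), with neutrophils the higher. Total-count scaling shifted the median gene by 0.50 on day 3 and 0.78 on day 5, moved the share of higher calls on day 5 from 46.8% to 95.8%, and called Hspd1, Hspe1 and Hspa1b on day 5. It turned the sign of Hspa8 on day 3 and of Dnajb1 on day 5. Leaving out CD45+ day 1 called the same 3 genes on day 5 and Hspd1 on day 3 (1.47). Of 7 CCT genes 3 passed on day 5, Cct5 (2.07), Cct7 (2.01) and Cct8 (1.93).

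The CD11b+ heart pool and the CD45+ libraries differ in sort, reagent kit and experiment, which cannot be told apart. The fits took the 3 heart pool hashtags as separate samples, although they come from 1 library. The p-values between preparations, here and in neutrophils, thus hold no spread between repeat libraries of the pool. In monocytes/macrophages 3 of 8 genes were called lower in the heart pool by edgeR, where 35.6% of 10675 genes were called in either direction and 16.3% lower. Hspa1a was lower by a log2 of -1.19 (SE 0.23, edgeR adjusted p = 0.014), with 436, 159 and 183 CPM against 164.5, 130.5 and 111.5 CPM. Dnajb1 was at -0.79 (SE 0.17, edgeR adjusted p = 0.019) and Hspa8 at -0.54 (SE 0.16, edgeR adjusted p = 0.044). Hspa1b had the opposite sign to its duplicate, 0.68 (SE 0.26, edgeR adjusted p = 0.086), with 55.7, 19.2 and 24.6 CPM against 82.0, 67.2 and 44.4 CPM, and did not pass.

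Scaling mattered here as well. Total counts shifted the median gene by 0.39 and the share of higher calls from 54.3% to 84.4%; Hspa1a remained lower at -0.80, Dnajb1 (-0.40) and Hspa8 (-0.15) were no longer called, and Hspa1b (1.07), Hsph1 (1.04) and Hsp90aa1 (0.59) were called higher. Hspe1 had the opposite sign under the 2 scalings, at -0.023 and 0.37. Leaving out samples gave 5 calls without CD45+ day 1 or heart pool day 1, with 2 of the 5 higher (Hspa1b and Hsph1) in the first case and 1 (Hspa1b) in the second. It gave 3 calls without CD45+ day 3, where Hspa8 was at -0.33 and not called and Hsph1 was called higher, 1 call, Hspa1a, without CD45+ day 5 or heart pool day 3, and 0 without heart pool day 5. Among immediate early genes 5 were higher, such as Fosb (1.78), and 7 lower, and 4 of 7 CCT genes were lower, such as Cct7 (-0.58).

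In neutrophils edgeR called none of the genes between the preparations (2 with an unadjusted p under 0.05, 0 by DESeq2), beside 13.8% of genes. Hspa1b was at 4.60, 2.38 and 0 CPM in the CD45+ libraries and at 12.4, 22.2 and 41.95 CPM in the heart pool, a log2 difference of 1.89 (SE 0.74, edgeR adjusted p = 0.10). Total counts shifted the median gene by 0.51, moved the share of higher calls from 58.7% to 88.6% and called Hspa1b and Hsp90aa1, as did leaving out CD45+ day 1 or heart pool day 1. It turned the sign of Hspa1a and Dnajb1. Of 18 immediate early genes 4 were higher in the heart pool, such as Fosb (3.05) and Egr1 (2.38). The difference between the classes in the preparation effect passed for none of the 8 genes (0 with an unadjusted p under 0.05, 0 by DESeq2, 0 under all 11 alternatives; 0.0116% of genes called), with values between -0.22 for Hspa8 and 1.28 for Hspa1b.

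The UMIs of the HSP70 duplicates were shared out differently in the preparations. Hspa1a took 87.2% of the UMIs of the pair over the 12 CD45+ sums, 68.2% over the 6 sums of the heart pool and 39.2% over the 14 sums of the blood and heart pool. In CD45+ monocytes/macrophages the share was 86.7% at steady state, where the pair was most abundant, and 88.1% to 89.2% on the other days. In heart pool monocytes/macrophages it was 66.7%, 66.0% and 71.5% on days 1, 3 and 5. Sums of neutrophils and of the T/NK cluster rest on 3 to 240 UMIs of the pair, and in the CD45+ libraries they lay between 75% and 100%.

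Reads of the duplicates can be shared. Of all 50-base windows of the Hspa1a transcript 58.8% also occur in Hspa1b and 62.3% the other way, but 0 of 451 windows in the last 500 bases of either gene, where 3′ tags fall. The annotations used for the CD45+ libraries and the pools differ, with 27998 and 31053 genes, and how counting treated shared reads is not given in the sources used here. The split between the 2 genes is therefore uncertain, and its part in the preparation difference was not tested.

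**Figure D5:**
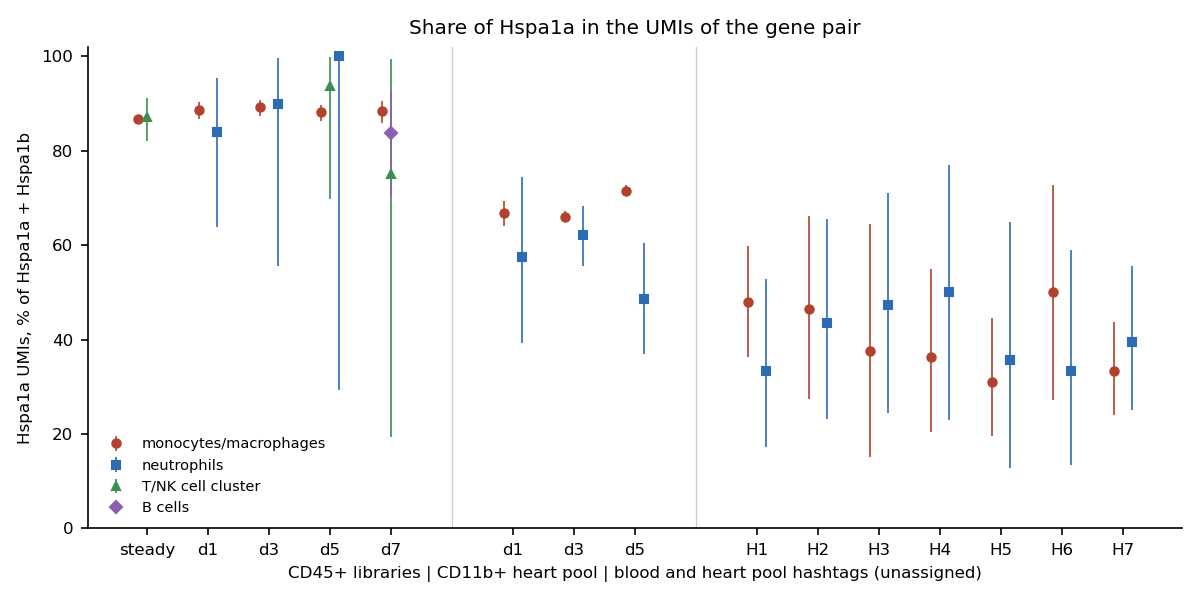
Share of Hspa1a in the UMIs of Hspa1a and Hspa1b together, in percent, by library or hashtag and class, with exact 95% binomial intervals. CD45+ monocytes/macrophages lie between 86.7% and 89.2%, those of the heart pool between 66.0% and 71.5%, and those of the blood and heart pool between 31.0% and 50%.

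In the blood and heart pool the inducible pair was scarce. Hspa1a was at 4.30, 2.03, 1.03, 1.69, 3.95, 2.81 and 8.16 CPM in monocytes/macrophages under hashtags 1 to 7, and at 2.77, 2.22, 2.10, 1.87, 1.42, 2.61 and 13.4 CPM in the neutrophils. The medians of 2.81 and 2.22 CPM stand beside heart pool values of 111.5 to 164.5 and 16.8 to 39.7 CPM. Between 0% and 1.92% of the cells of either class thinned to 1500 UMIs had an Hspa1a UMI. The level of neutrophils over that of monocytes/macrophages was 0.359 to 2.04, with a counting interval that includes 1 in each of the 7 hashtags. These ratios rest on 5 to 36 Hspa1a UMIs in a class, so the intervals are wide. In the CD45+ libraries and the heart pool on days 1, 3 and 5 the ratio was 0.0554 to 0.357. Tissue, sort and dissociation differ or are unknown between these preparations, so the values are set side by side and no difference was tested.

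Hspa8 and the mitochondrial pair were not scarce in the same monocytes/macrophages. Hspa8 was at 1249 to 2692 CPM with a median of 2121 CPM, Hspe1 at 193 to 285 CPM with a median of 221 CPM, and Hspd1 at 60.8 to 109 CPM with a median of 75.2 CPM. Dnajb1 varied little over the hashtags, from 23.1 to 29.3 CPM in monocytes/macrophages and from 20.8 to 40.1 CPM in neutrophils. The order of classes was that of the hearts for Hspa8 and the pair: neutrophils had 186 to 889 CPM of Hspa8 and 5.07 to 54.3 CPM of Hspe1, without overlap with monocytes/macrophages. The share of all genes without overlap was not counted here either. Immediate early genes summed to 2922 to 3797 CPM in monocytes/macrophages and to 7231 to 9990 CPM in neutrophils.

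Over the 18 heart class sums, the 8 genes did not vary as 1 block. Pearson's r of log2(CPM + 5) was 0.958 for Hspe1 and Hspd1, 0.939 for Hsph1 and Hsp90aa1, and 0.875 for Hspa1a and Hspa1b, but 0.539 for Hspa1a and Hspe1. The sums share libraries, depth and class, so these values are a description. Among 2360 genes the patterns most like Hspa1a were those of Mgl2 (r = 0.84), Ccl24 (0.83), Rassf1 (0.79), Itm2c (0.77) and Pim3 (0.76). Those most like Hspd1 were Hsp90ab1 (0.97), Cct3 (0.96), Cct4 (0.95), Atp5a1 (0.94) and Eif3l (0.94), and those most like Hspa8 were Crip1, Tmem261, Pdia3, Hsp90ab1 and Tm2d2 (0.90 to 0.91).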

How the data were processed

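Gene-by-cell matrices of UMI counts were deposited by the authors; per the submitters' processing notes they were made with Cell Ranger (3.0.2 per the headers of the pools' files) on mm10 (GRCm38). Barcodes were kept if they held 200 genes or more and if mitochondrial UMIs made up no more than 10%. Doublets called by scrublet (2 to 6 per CD45+ library) and barcodes with several hashtags or none were left out. Pairs of libraries shared 0 to 28 barcodes. Cells were clustered in scanpy 1.11.5 (2000 variable genes, 30 components, Leiden resolution 0.5), leaving out the 8 genes and the listed chaperone and immediate early genes. Counts were summed per class and library or hashtag (at least 30 cells) and tested with edgeR 4.0.16 (quasi-likelihood, TMM, filterByExpr, two-sided, Benjamini-Hochberg over all genes tested, threshold 0.05). P-values rest on the spread between pooled samples, estimated with information shared across genes. The 3 heart pool samples are hashtags of 1 library. DESeq2 1.42.0, total-count scaling, no filter, clusters found with the chaperone genes, a mitochondrial limit of 20%, no block and leaving out each sample were alternatives. On simulated counts with 200 changed genes, edgeR recovered 85% between neutrophils and monocytes/macrophages and 45.5% between the T/NK cluster and monocytes/macrophages. Between days 1 and 3 it recovered 66.5% in monocytes/macrophages and 65% in neutrophils. Of the calls, 2.26% to 5.21% were false. The changed genes were well counted and had a single size of change, larger than most differences above. These shares therefore do not hold for smaller changes. All 8 genes are named; of each other list, up to 3 called genes per result with the largest change and a mean of at least 20 CPM could be named. The genes and lists were chosen with earlier results of these data known. B and NK cells were not tested: B cells reached 30 cells in 1 CD45+ library, and NK cells formed no cluster of their own.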

Additional observations from a re-analysis of the deposited data

How the results depend on the processing

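Over all 85 log2 differences of the 8 genes, 82 of 973 alternative settings had the opposite sign, 17 of them with total counts alone and 54 without 1 sample; 0 of the 82 fell on the 14 differences called by edgeR. For the 39 differences whose values the text gives, 361 of 450 settings kept the direction and the side of the threshold and 19 had the opposite sign. The Dnajb1 difference between neutrophils and monocytes/macrophages was -0.29 with total counts alone and -0.083 to 0.36 without 1 sample, and that of neutrophils on day 5 was 0.017 with total counts alone. Hsph1 in monocytes/macrophages on day 5 was 0.17 with total counts alone, 0.025 without the filter and -0.38 to 0.61 without 1 sample. Hspe1 in monocytes/macrophages between preparations was 0.37 with total counts alone, 0.073 without the filter, 0.024 with clusters found with the chaperone genes, 0.021 with the 20% limit and -0.31 to 0.15 without 1 sample. Hspa8 in the preparation effect between the classes was -0.45 to 0.059 without 1 sample. Of the other counts of members called, total counts alone gave 3 for the day 5 difference between the classes, 0 for monocytes/macrophages on day 5, 2 for neutrophils between preparations, 1 for neutrophils on day 3 and 2 on day 5. DESeq2 gave 1 for the day 5 difference between the classes, and 1 and 5 for monocytes/macrophages on days 3 and 5. Without the filter on low counts there were 5 for monocytes/macrophages between preparations, 3 on day 5, and 1 for neutrophils between preparations. Clusters found with the chaperone genes gave 2 for monocytes/macrophages on day 5. Without a block term there were 0 for monocytes/macrophages on day 5 and 0 for the T/NK cluster. Leaving out each sample gave 7 to 7 between the classes, 2 to 3 for the T/NK cluster, 0 to 5 for monocytes/macrophages between preparations, 0 to 3 and 0 to 6 on days 3 and 5, 0 to 2 for neutrophils between preparations, 0 to 1 and 0 to 2 on days 3 and 5, and for the differences between the classes 0 to 1 on day 3, 0 to 3 on day 5 and 0 to 0 for the preparation. The causes were not tested. The steady state over day 7 ratio in monocytes/macrophages was 27.7 for Hspa1a and 9.22 for Dnajb1 as a mean over cells, and 7.69, 4.37 and 4.26 for Hspa1a, Dnajb1 and Hsp90aa1 in the Folr2-led cluster alone; that setting, and clusters found with the chaperone genes and the 20% limit for these ratios, were added after seeing the data. The share of steady-state cells with an Hspa1a UMI was 66.9% thinned to 1000 UMIs and 94.8% unthinned, and 30.5% unthinned on day 7. The tests of neutrophils and of the T/NK cluster against monocytes/macrophages had the library or hashtag as a block, and counts without it are among those above. The differences between the classes in day and preparation effects had no such block, so the pairing of classes within a library or hashtag was not used. By replicate number no paired analysis was possible because the labels give none. Depth limits the CD45+ neutrophils of day 5 (41 cells) and the T/NK cluster of day 5 (31 cells).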

Other observations

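Barcodes over the mitochondrial limit, which no comparison above uses, differed by gene. In the steady-state library 28 such barcodes held 4010 CPM of Hspa1a (3536 to 4529) beside 3040 CPM in the kept cells, but 108 CPM of Dnajb1 (43.6 to 223) beside 482 CPM. On day 1, 9 such barcodes held 2001 CPM of Hspa1a (1416 to 2746) beside 332 CPM, and on day 3, 15 held 1300 CPM (980 to 1693) beside 156 CPM. On day 5, 15 held 232 CPM beside 164 CPM, and on day 7, 6 held 126 CPM beside 75.9 CPM. In the heart pool the values were 236 CPM in 192 barcodes of day 3 beside 120 CPM, 134.5 CPM in 406 barcodes of day 5 beside 131 CPM, and 41.1 CPM in 22 barcodes of day 1 beside 136 CPM. Hspa8 in the heart pool's day 3 and day 5 barcodes was lower than in the kept cells, at 1178 beside 2354 CPM and 1147 beside 2452 CPM. In the heart pool's day 1 barcodes it was at 479 beside 2574 CPM. In the CD45+ libraries it was higher in such barcodes on days 1 and 3, at 4844 beside 2164 CPM and 5650 beside 3402 CPM. It was at 2765 beside 2500 CPM on day 5, 1111 beside 1859 CPM on day 7 and 3267 beside 5218 CPM at steady state. These are sums over few barcodes, with intervals for counting error only. The kept cells pool all classes, and the classes of the barcodes over the limit were not compared. The part of cell class in these values was not tested.

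In the blood and heart pool 1 hashtag stood apart from the rest in the neutrophils. Hsp90aa1 was at 94.3, 76.3, 73.7, 75.0, 85.0, 126 and 413 CPM in hashtags 1 to 7. Hsph1 was at 0.555, 0.222, 0.700, 0, 0.567, 0.869 and 26.8 CPM, Hspe1 at 9.71, 6.87, 6.76, 5.07, 9.07, 6.08 and 54.3 CPM, and Hspd1 at 9.99, 5.99, 9.10, 7.47, 12.75, 10.4 and 54.3 CPM. Hashtag 7 was the highest in each. Within 1 neutrophil cluster Hsp90aa1 was at 638 CPM in hashtag 7 and 181 CPM in hashtag 6, and in the other clusters hashtag 7 was at 123 and 119 CPM. In monocytes/macrophages Hsp90aa1 was at 190, 194, 154, 218, 253, 306 and 436 CPM. Hashtag 7 also gave the fewest cells, 718. The labels do not say which condition a hashtag marks.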
